A study of Mus musculus with 8 samples.

Results

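The 7 genes described here are 3 Six-family genes (Six2, Six4 and Six5) and 4 Eya-family genes (Eya1, Eya2, Eya3 and Eya4) of the mouse. Myogenin and p300 intervals were assigned to them when they lay within 50 kb of the gene body, and 50 of the 43759 intervals in the 4 peak lists did so. The lists come from ChIP-seq of C2C12, a mouse myoblast line labelled as C3H that fuses into myotubes after serum is lowered. Myoblasts were kept in differentiation medium for 24 h, either with no addition (Ctl) or with bexarotene at 50 nM (Bex), a rexinoid that activates the retinoid X receptor. Each factor was measured in 1 library per condition, and each list gives the positions of called intervals without tag counts or scores. All lists describe 1 immortalized line at 1 time, so the values below carry no error between cultures, no test between conditions was possible, and an interval missing from a list shows only that no peak was called there.

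Six-family proteins are homeodomain transcription factors that bind a sequence known in muscle as the MEF3 site. Eya proteins do not bind DNA themselves but join Six-family proteins on it, where they act as coactivators and carry a tyrosine phosphatase domain. Together with Pax and Dach proteins they form a network that acts upstream of the myogenic regulatory factors in the embryo, and in muscle fibers Six-family and Eya proteins take part in the choice of fast fiber type. Myogenin is a basic helix-loop-helix factor of terminal muscle differentiation that binds the E-box, and p300 is a histone acetyltransferase often found at enhancers.

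The myogenin intervals that carried the results below are shown first, taken from the mm9 genome on the plus strand, with E-boxes in capitals (CAGCTG or CACCTG on either strand, the latter read as CAGGTG on the other strand). Other sequences of the general E-box form CANNTG are in lower case and are not counted as E-boxes below unless CANNTG is named. The Six4 intervals in intron 3 (chr12:74211602-74211769) and upstream of the gene (chr12:74261399-74261698) are shown because myogenin was called there in bexarotene and not in control. The Six5 interval (chr7:19669809-19670025) and the Eya2 interval (chr2:165455473-165455772) are shown because they were the myogenin intervals of these genes in both conditions and held most E-boxes. The Eya4 intervals in intron 3 (site 1, chr10:22897496-22897795; site 2, chr10:22940314-22940528) are shown because myogenin was called there in both conditions and p300 was called over them.
Six4 intron 3: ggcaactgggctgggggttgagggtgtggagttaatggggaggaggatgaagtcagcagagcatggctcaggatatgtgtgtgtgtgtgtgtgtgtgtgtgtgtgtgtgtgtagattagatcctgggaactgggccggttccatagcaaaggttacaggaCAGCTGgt
Six4 upstream: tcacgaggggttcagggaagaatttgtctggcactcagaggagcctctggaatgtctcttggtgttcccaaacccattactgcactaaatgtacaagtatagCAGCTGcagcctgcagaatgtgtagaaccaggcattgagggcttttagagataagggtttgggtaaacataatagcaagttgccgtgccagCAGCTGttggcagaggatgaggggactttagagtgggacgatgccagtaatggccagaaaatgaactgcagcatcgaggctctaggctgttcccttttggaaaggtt
Six5 upstream: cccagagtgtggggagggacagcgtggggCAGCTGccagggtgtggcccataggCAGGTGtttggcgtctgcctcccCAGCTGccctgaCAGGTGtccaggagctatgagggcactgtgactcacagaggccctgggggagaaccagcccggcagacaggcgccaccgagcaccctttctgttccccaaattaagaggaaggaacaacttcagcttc
Eya2 upstream: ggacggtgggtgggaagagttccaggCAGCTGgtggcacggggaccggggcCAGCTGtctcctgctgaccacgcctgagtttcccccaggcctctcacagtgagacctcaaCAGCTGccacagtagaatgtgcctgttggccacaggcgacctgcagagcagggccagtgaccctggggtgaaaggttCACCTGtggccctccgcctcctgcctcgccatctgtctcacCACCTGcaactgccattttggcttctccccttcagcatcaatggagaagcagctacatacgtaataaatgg
Eya4 site 1: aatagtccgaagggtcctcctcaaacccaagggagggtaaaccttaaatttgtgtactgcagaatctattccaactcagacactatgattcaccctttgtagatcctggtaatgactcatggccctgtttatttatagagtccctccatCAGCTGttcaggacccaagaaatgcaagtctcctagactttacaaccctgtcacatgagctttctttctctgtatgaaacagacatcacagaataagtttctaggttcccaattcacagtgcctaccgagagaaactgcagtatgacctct
Eya4 site 2: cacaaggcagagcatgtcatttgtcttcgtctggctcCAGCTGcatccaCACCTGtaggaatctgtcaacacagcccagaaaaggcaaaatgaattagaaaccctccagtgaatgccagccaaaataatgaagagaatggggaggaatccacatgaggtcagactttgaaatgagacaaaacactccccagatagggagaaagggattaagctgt

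The lists hold 5912 (Myog_Ctl), 6642 (Myog_Bex), 22051 (p300_Ctl) and 9154 (p300_Bex) intervals. Of 14 genes that mark differentiating skeletal muscle, 11, 11, 11 and 10 had an interval within 50 kb in the lists, in the order above. Of 12 genes that mark liver, neurons, lung epithelium or pancreas, 1, 2, 5 and 3 did. Of all protein-coding genes 32.4%, 33.0%, 53.7% and 35.2% did. Peak positions do not measure expression. Intervals of a factor that shared at least 1 bp between the conditions were joined into a region, which was called shared. All other regions were unique to control or unique to bexarotene.

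Eya4 and Six4 held 42 of the 50 intervals, 28 near Eya4 and 14 near Six4. By list, in the order Myog_Ctl, Myog_Bex, p300_Ctl and p300_Bex, Eya4 had 5, 4, 12 and 7 intervals and Six4 had 0, 3, 7 and 4. Eya2 had 1, 1, 0 and 1 interval and Six5 had 1, 1, 0 and 0. Eya1 had 2 intervals, both of p300 in control, Eya3 had 1, of myogenin in bexarotene, and Six2 had none. The family was therefore uneven, with intervals of both factors near Six4, Eya2 and Eya4 and of 1 factor near Six5, Eya1 and Eya3.

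**Figure D1:**
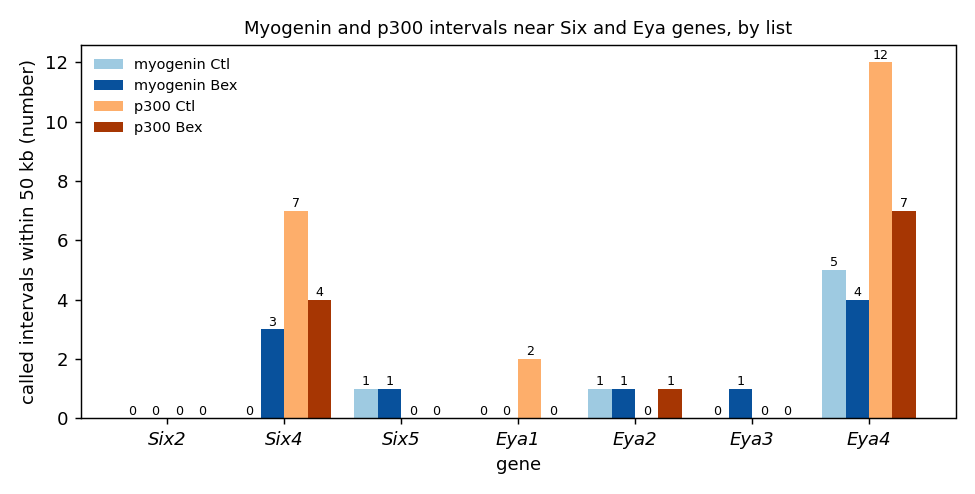
Number of called intervals within 50 kb of each gene body (y axis) for the 7 genes (x axis), with 1 bar for each of the 4 peak lists. Eya4 reached 12 intervals of p300 in control, Six4 had 3 myogenin intervals in bexarotene and 0 in control, and Six2 had 0 in every list.

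The counts were set beside those of all 22380 protein-coding genes. A Myog_Ctl interval lay within 50 kb of 3 of the 7 genes, against 32.4% of all genes, and a Myog_Bex interval within 50 kb of 5, against 33.0%. For p300 the numbers were 3 of 7 in control, against 53.7%, and 3 of 7 in bexarotene, against 35.2%. Six2 was the one member without an interval of any list, as were 36.0% of all genes. How many genes had at least as many intervals as Six4 and Eya4 is given below as a description.

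Six4 encodes a homeodomain factor that is present in the myogenic lineage, and its window held 3 myogenin intervals in bexarotene and 0 in control. The gene spans 13.2 kb of chromosome 12 on the minus strand (chr12:74201246-74214401). None of the control myogenin intervals lay within 50 kb of it, the nearest being 68.6 kb downstream (chr12:74132404-74132618), with control p300 over it. This nearest interval was of the shared class, so myogenin was called there in bexarotene as well. The count of 0 for Six4 in control thus holds for the limit of 50 kb, and a limit that reached this interval would add myogenin in both conditions. Of all genes, 7.86% had at least 3 Myog_Bex intervals, and 4.50% had at least as many for the length of their window. With 7 intervals of p300 in control and 4 in bexarotene, Six4 was among the 4.66% and 3.54% of genes with the most, and among the 1.70% and 1.26% with the most per length.

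In the gene itself, myogenin was called in intron 3 of the 5-exon transcript at chr12:74211602-74211769, 2.55 kb from the nearest Six4 transcription start site (TSS). This interval of 168 bp had the smallest length in its list. Its only E-box of the CAGCTG or CACCTG form, CAGCTG at bases 161 to 166 of the sequence above, lay 79 bp from the center. Counting any CANNTG, 3 lay within 100 bp of the center. The myogenin interval lay inside a control p300 interval of 464 bp (chr12:74211364-74211827). The p300 interval of 158 bp called under bexarotene (chr12:74211317-74211474) overlapped the control one by 111 bp but not the myogenin interval, and their centers were 290 bp apart. At this place the 2 factors therefore met only across conditions, myogenin from the treated and p300 from the untreated library.

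The other 2 myogenin intervals of Six4 lay upstream, in introns of the neighboring gene Mnat1, which encodes an assembly factor of the CDK-activating kinase. The one at chr12:74261384-74261713 was 330 bp long, 47.1 kb upstream of the Six4 TSS and 36845 bp downstream of the Mnat1 TSS, and held CAGCTG on both sides of its center, at 45 and 46 bp from it and 85 bp apart. It was unique to bexarotene, while p300 was called over it in both conditions (chr12:74261238-74261739 in control, 502 bp, and chr12:74261447-74261828 in bexarotene, 382 bp). Under bexarotene the centers of myogenin and p300 were 89 bp apart. The third interval, chr12:74263974-74264229 (256 bp), had 1 E-box of the CACCTG form within 50 bp of its center and no p300 interval over it in either condition. Its center was 49.7 kb from the TSS, just inside the limit of 50 kb, and with a limit of 10 kb Six4 kept 1 myogenin interval in bexarotene, the one in intron 3, against 0 in control.

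At 2 of these places a myogenin interval unique to bexarotene thus lay over a p300 interval. The longest p300 interval of Six4 was elsewhere, about 34.0 kb upstream of the TSS, with 587 bp in bexarotene (chr12:74248108-74248694) and 550 bp in control (chr12:74248181-74248730), and no myogenin was called over it. The remaining 5 p300 intervals were 158 or 159 bp long, the smallest lengths of their lists, and each was called in 1 condition. They included chr12:74224586-74224744 in control, whose center lay 39 bp from the Mnat1 start and so at another gene's promoter. Of the 14 intervals, 7 lay in the body of Mnat1, and the lists do not say which gene an interval acts on.

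**Figure D2:**
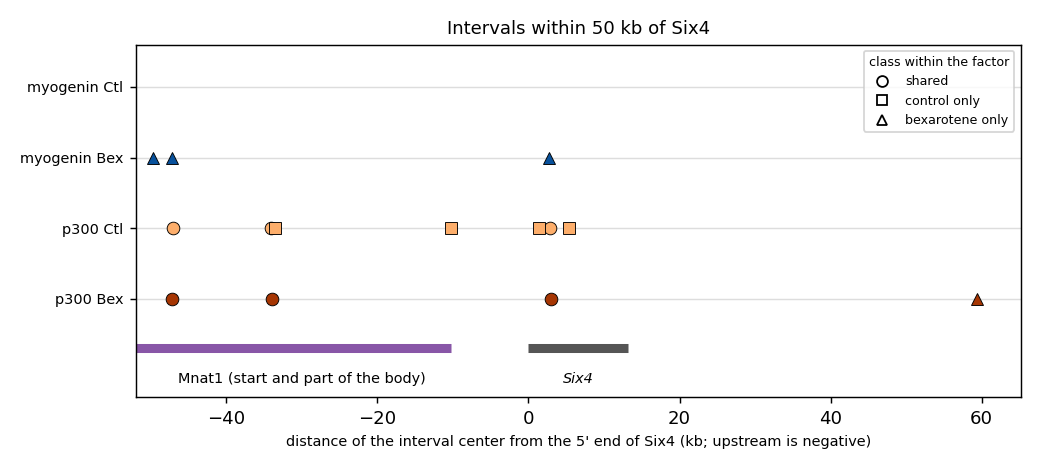
Positions of the 14 intervals near Six4, as the distance of the interval center from the 5′ end of the gene (x axis, kb, upstream negative), in 1 track per list, with the symbol giving the class. The 3 myogenin triangles are unique to bexarotene, the control myogenin track is empty, and 2 of the triangles sit beside p300 circles that were called in both conditions.

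Six5 and Six2 had 2 intervals and 0 intervals. Six5 (chr7:19679893-19683694), which lies next to the myotonic dystrophy kinase gene Dmpk, had 1 myogenin interval in each condition and no p300. The interval was chr7:19669727-19670047 in control (321 bp) and chr7:19669809-19670025 in bexarotene (217 bp), and the latter lay wholly within the former. It was 10.0 kb and 9.98 kb upstream of the Six5 TSS, but 597 and 627 bp from the Dmpk TSS, in an intron of Dmpk. The nearest p300 intervals were 236 kb from the Six5 gene body in control and 87.8 kb from it in bexarotene.

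The sequence at Six5 and Dmpk held 4 E-boxes, 2 of the CAGCTG and 2 of the CACCTG form. In the control interval all 4 lay within 50 bp of the center, which was true of 0.524% of the intervals in that list, and in the bexarotene interval, whose center was shifted by 30 bp, 2 did. The last CAGCTG and the last CACCTG were 6 bp apart. The AP-1 sequence TGACTCA lay 12 bp from the center of the bexarotene interval, and 12.6% of Myog_Bex intervals held TGACTCA or TGAGTCA within 100 bp.

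Six2 (chr17:86083608-86087594), a family member best known from kidney progenitors, had no interval of any list in its window. The nearest was 274 kb upstream, where myogenin was called in both conditions (chr17:86361121-86361292 in control and chr17:86361103-86361312 in bexarotene) and p300 only in bexarotene (chr17:86361119-86361276). In control the nearest p300 interval was 479 kb away.

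Eya4 encodes an Eya coactivator that is also required in the inner ear and heart, and it had the most intervals of the 7 genes in every list. The gene covers 246 kb of chromosome 10 on the minus strand (chr10:22823974-23069701). At least as many intervals were found near 2.36% of all genes for Myog_Ctl, 4.21% for Myog_Bex, 0.943% for p300_Ctl and 0.630% for p300_Bex. Its window is long, and per length the shares were 11.8%, 13.4%, 8.32% and 4.69%. Few genes thus had more p300 intervals, and a larger share of genes matched Eya4 once the length of the window was taken into account.

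Within Eya4 the intervals were gathered in intron 3 of the 19-exon transcript. This intron of 53.7 kb makes up 21.8% of the gene body and held 20 of the 28 intervals, including all 9 of myogenin, 7 of the 12 of p300 in control and 4 of the 7 of p300 in bexarotene. They spanned 44.0 kb, from chr10:22896846 to chr10:22940859, at 129 to 173 kb downstream of the TSS. Intron 2, which is longer at 96.2 kb, had 3 intervals, all of p300, and intron 1 had 2, both of p300 in control. Myogenin was thus not called near the Eya4 TSS in either condition, its nearest interval being 129 kb away.

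**Figure D3:**
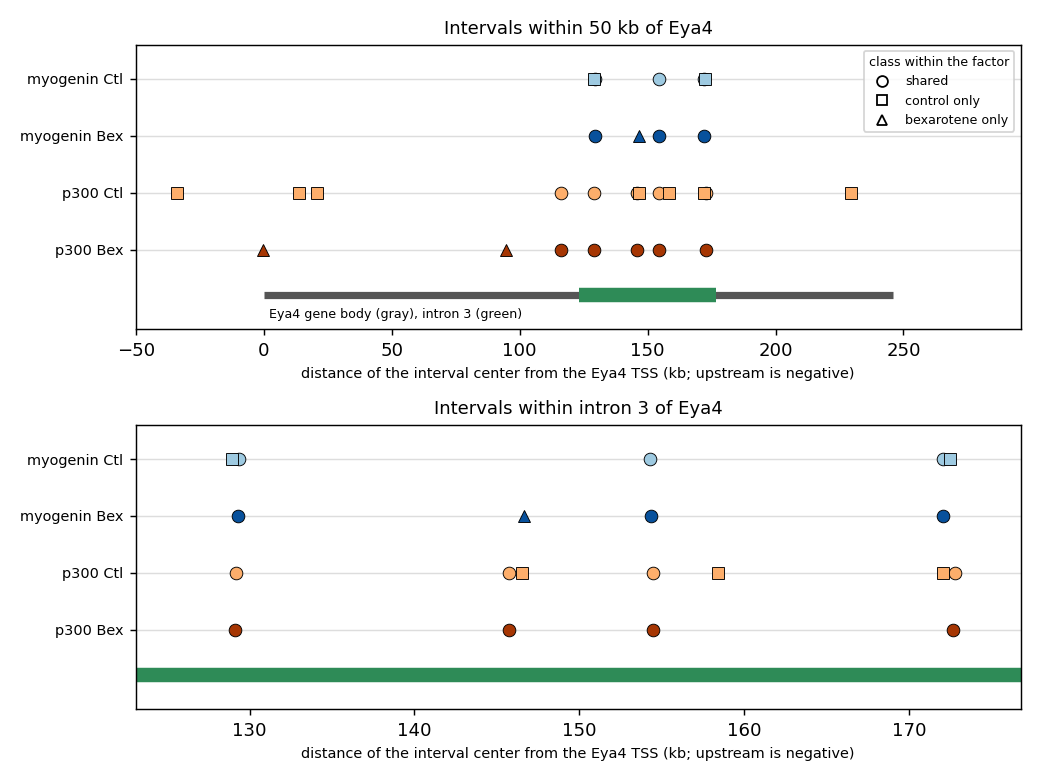
Positions of the 28 intervals near Eya4, as the distance of the interval center from the TSS (x axis, kb, upstream negative), in 1 track per list, for the whole window (upper panel) and for intron 3 (lower panel), with the symbol giving the class. All 9 myogenin intervals lie in intron 3, between 129 and 173 kb from the TSS.

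Of 15 separate places in the Eya4 window, 4 had both factors. At 2 of these 4 places every list had an interval. These counts are a description, since the shares of such places in the whole lists were not computed.

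Site 2, about 129 kb from the TSS, was one of the places with all 4 lists. Myogenin was called there at chr10:22940252-22940477 in control and chr10:22940314-22940528 in bexarotene, with p300 at chr10:22940281-22940767 (487 bp, the longest interval of Eya4) and chr10:22940458-22940710. The control list had a further myogenin interval of 172 bp at the edge of the p300 interval (chr10:22940688-22940859), which was unique to control and held neither CAGCTG nor CACCTG. The shared myogenin interval held CAGCTG and CACCTG 6 bp apart, both within 50 bp of the center in control and at 67 and 55 bp from it in bexarotene, and the nuclear receptor sequence AGGTCA lay 51 bp from the bexarotene center. AGGTCA was present within 100 bp in 13.5% of Myog_Bex intervals and in 1 of the 10 near the members.

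Site 1, about 172 kb from the TSS, had myogenin in both conditions (chr10:22897523-22897756 in control, 234 bp, and chr10:22897482-22897809 in bexarotene, 328 bp) but p300 over it only in control (chr10:22897456-22897799, 344 bp). The myogenin centers differed by 6 bp, and in control they were 12 bp from the p300 center. Its CAGCTG lay 2 bp from the bexarotene center and the AP-1 sequence TGACTCA 35 bp from it. Beside it, the control list had a myogenin interval without CAGCTG or CACCTG (chr10:22897131-22897302), and a p300 interval was called in both conditions (chr10:22896846-22897004 and chr10:22896954-22897111) whose center in bexarotene was 613 bp from that of myogenin. At site 1 the p300 position nearest to myogenin therefore differed between the lists, while the myogenin position was nearly the same.

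At site 3, about 147 kb from the TSS, a myogenin interval unique to bexarotene (chr10:22922933-22923158, 226 bp) overlapped a p300 interval unique to control (chr10:22923080-22923238). It was the one bexarotene myogenin interval near the 7 genes without CAGCTG or CACCTG, and it held the Runx sequence TGTGGT at 18 and 46 bp from its center. TGTGGT lay within 100 bp in 29.6% of Myog_Bex intervals.

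Near the Eya4 TSS the lists held 1 interval within 1 kb, called for p300 in bexarotene and unique to that condition. The remaining p300 intervals of Eya4 were spread over 229 kb downstream to 33.8 kb upstream of the TSS, and the pair at chr10:22953303-22953621 and chr10:22953284-22953493 in intron 2 was called in both conditions.

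The other Eya genes had few intervals. Eya1, which is needed for ear and kidney and is present in myogenic progenitors, spans 141 kb (chr1:14159035-14300281, minus strand) and had only p300, only in control, and only at its start. These intervals were chr1:14299843-14300001 in exon 1 (159 bp, 278 bp downstream of the nearest TSS) and chr1:14300245-14300452 (208 bp, 68 bp upstream of the nearest TSS). Under bexarotene the nearest p300 interval was 157 kb downstream, and it overlapped a myogenin interval unique to bexarotene (chr1:14001725-14001892). The p300 intervals at the Eya1 start (control) and the Eya4 start (bexarotene) were the 3 intervals within 1 kb of a member's TSS. Counting the TSS of any protein-coding gene, which adds those at Dmpk and Mnat1, the numbers near the members were 1 of 7 for Myog_Ctl (24.2% of the whole list), 1 of 10 for Myog_Bex (12.5%), 3 of 21 for p300_Ctl (11.0%) and 1 of 12 for p300_Bex (12.4%).

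Eya2 (chr2:165480798-165597227) had a myogenin interval 25.2 kb upstream in both conditions, at chr2:165455416-165455786 (371 bp) in control and chr2:165455462-165455784 (323 bp) in bexarotene. The control interval was the longest of the control myogenin intervals near the 7 genes. Over its whole length the interval held 5 E-boxes in both conditions, where at least 4 were found in 4.75% of Myog_Ctl and 4.98% of Myog_Bex intervals. These lists have shorter intervals, with medians of 172 bp and 189 bp. Within 50 bp of the center the Eya2 interval held 1 E-box in control and 2 in bexarotene. No p300 was called over this myogenin interval, and the only p300 interval of Eya2 (chr2:165526016-165526173, 158 bp) lay in intron 5 of the 16-exon transcript and was unique to bexarotene. Eya3 (chr4:132194902-132280680) had 1 interval, of myogenin in bexarotene, 35.3 kb upstream (chr4:132159493-132159660), with 2 CAGCTG within 50 bp of its center. At 50.1 kb upstream of Eya3, just outside the limit of 50 kb, the control lists had a myogenin interval (chr4:132144549-132144818) with p300 over it (chr4:132144634-132144792). The myogenin interval was of the shared class, so myogenin was called there in bexarotene as well. The count of 0 for Eya3 in control thus rests on where the limit was drawn, and a wider limit would add myogenin in both conditions.

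Set together, the 17 myogenin intervals made 12 regions, of which 5 were shared (31.3% of all myogenin regions were), 5 were unique to bexarotene (38.2%) and 2 were unique to control (30.6%). Both regions unique to control were in Eya4 intron 3, and 3 of the 5 unique to bexarotene were near Six4. Of the 10 bexarotene regions 50.0% were unique to bexarotene (95% Wilson interval 23.7 to 76.3), against 55.0% of all myogenin bexarotene regions. Of the 7 control regions 28.6% (8.22 to 64.1) were unique to control, against 49.4%. The 33 p300 intervals made 25 regions, of which 13 were unique to control (62.1% of all p300 regions were), 8 were shared (30.1%) and 4 were unique to bexarotene (7.76%). Of the 21 control p300 regions 61.9% (40.9 to 79.2) were unique to control, against 67.4%, and of the 12 bexarotene regions 33.3% (13.8 to 60.9) were unique to bexarotene, against 20.5%. Each of these intervals, which cover counting error over regions and not the variation between cultures, holds the share of the whole list.

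Myogenin and p300 shared 6 of 30 separate places near the members, 4 in Eya4 and 2 near Six4. This count joins the conditions and is a description only, since the same share was not computed for all places of the 4 lists. Within a condition, 4 of 7 control myogenin intervals (57.1%, 25.0 to 84.2) overlapped p300, against 33.0% of the whole list, and all 4 were in Eya4, where 2 of them overlapped the same p300 interval at site 2. In bexarotene 3 of 10 (30.0%, 10.8 to 60.3) did, against 25.6%. When the overlap had to cover 50% of both intervals, 1 of 7 (14.3%) and 1 of 10 (10.0%) did. The shares of the whole lists under that rule were not computed, so these 2 values have no background beside them. From the side of p300, 3 of 21 control intervals overlapped myogenin (8.79% in the whole list), as did 3 of 12 bexarotene intervals (18.5%).

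Of the control myogenin intervals, 5 of 7 had an E-box no more than 50 bp from the center (47.7% of the whole list), and of the bexarotene intervals 7 of 10 (70.0%, 39.7 to 89.2, against 60.3%). For p300 the numbers were 3 of 21 in control (19.6%) and 2 of 12 in bexarotene (25.2%). The 2 control intervals without CAGCTG or CACCTG were those unique to control in Eya4. All 7 control intervals held CANNTG within 100 bp of the center, as did 82.6% of the whole list. A spacing of 6 bp between neighboring E-boxes was found in the shared interval at Six5 and Dmpk and in the shared interval at Eya4 site 2, and in 1.13% of all Myog_Ctl and 1.23% of all Myog_Bex intervals (1.90% of shared Myog_Bex intervals). This spacing was singled out after the sequences had been seen. The MEF3 sequence TCAGGTT, the type of site that Six-family proteins bind, was within 100 bp of the center in 0 of 17 myogenin intervals, in 2 of 21 control p300 intervals and in 0 of 12 bexarotene p300 intervals, compared with 2.54% of Myog_Ctl, 2.76% of Myog_Bex, 2.89% of p300_Ctl and 2.71% of p300_Bex intervals. None of the matches named in the sequences above overlapped another.

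**Figure D4:**
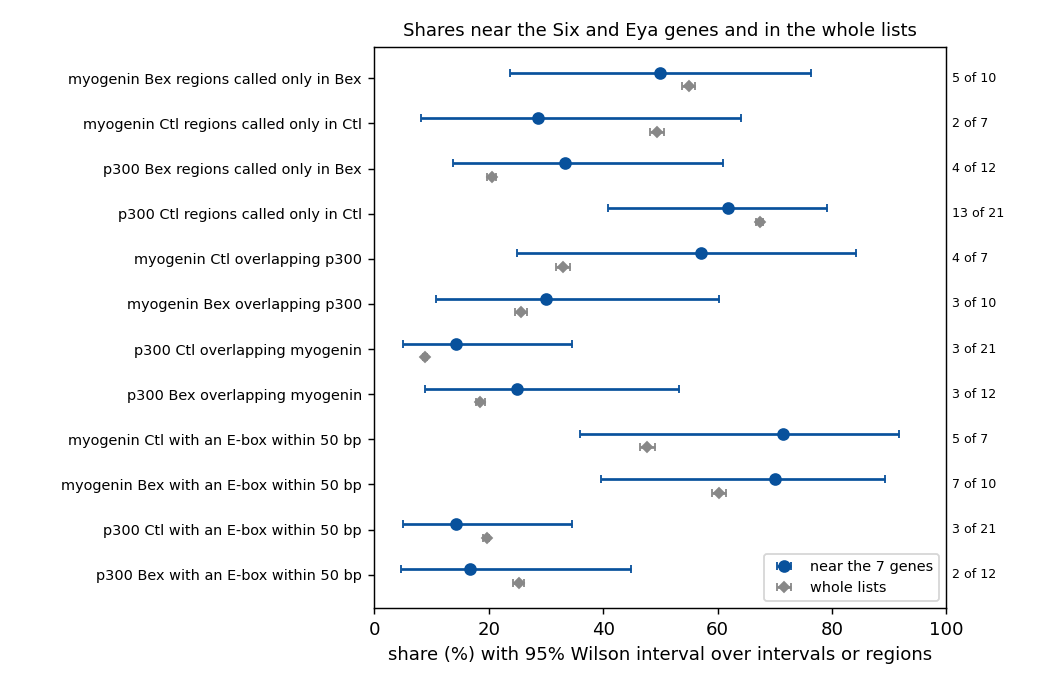
Shares (x axis, percent) near the 7 genes (circles) and in the whole lists (diamonds), with 95% Wilson intervals as bars, for class, overlap with the other factor in the same condition, and E-box within 50 bp, with counts near the members at the right. The intervals of the members are wide, as for the 5 of 10 myogenin regions unique to bexarotene, and each holds the share of the whole list.

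Interval lengths were compared by class. The 5 shared myogenin intervals were 226 to 371 bp long in control (median 264 bp) and 215 to 328 bp in bexarotene (median 260 bp), and none had the smallest length. Both intervals unique to control were at the smallest length of 172 bp, as were 75.6% of all such intervals. The 5 unique to bexarotene were 168 to 330 bp long (median 226 bp), the longest being the upstream interval of Six4, and 2 were at the smallest length of 168 bp (69.7% of all such intervals), those in Six4 intron 3 and upstream of Eya3. For p300 all 4 intervals unique to bexarotene had the smallest length of 158 bp (80.5% of all such intervals), as had 8 of 13 unique to control at 159 bp (46.2%), against 2 of 8 shared control intervals (9.72%). Of the shared bexarotene intervals 3 of 8 were at the smallest length (40.8%). The p300 interval of Eya2 is thus of the kind that HOMER reports at its smallest size, and whether it would be called again was not tested.

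**Figure D5:**
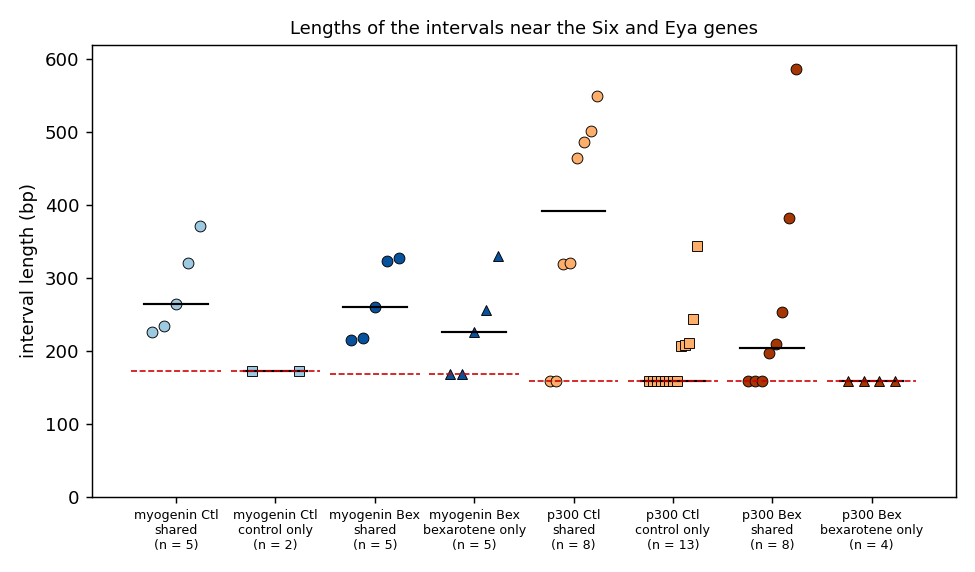
Length (y axis, bp) of each interval near the 7 genes by list and class, with the median as a black line and the smallest length of the list as a dashed red line. All 4 p300 intervals unique to bexarotene lie on the dashed line at 158 bp, while shared p300 intervals reach 587 bp.

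The related genes were 15: partners in the network, Groucho corepressors and muscle genes with known MEF3 sites. Of these 7 had a Myog_Ctl interval within 50 kb (32.4% of all genes), 5 a Myog_Bex (33.0%), 10 a p300_Ctl (53.7%) and 6 a p300_Bex interval (35.2%). Pax7, which marks muscle stem cells, had 1, 0, 7 and 3 intervals and Pax3 had 0, 0, 2 and 1. Of the corepressor genes, Tle1 had 1, 0, 4 and 1, Tle3 had 3, 5, 10 and 0, and Tle4 had 0, 0, 1 and 0. Sobp, named for the binding of its product to Sine oculis, the fly relative of these factors, had 3, 2, 4 and 2, while Dach1 and Dach2, whose products are corepressors that work with Six-family and Eya proteins, had none in any list. Among genes with MEF3 sites, Myog had 4, 4, 1 and 2 and Myod1 4, 3, 5 and 3, Tnnc1 had 5, 2, 3 and 0 and Aldoa 0, 0, 2 and 0, and Myf5, Myf6 and Ckm had none. Near Tle3, Tle4, Tnnc1 and Aldoa p300 was thus called only in control. In the whole lists 62.1% of p300 regions were unique to control, and the share of all genes with p300 only in control was not computed.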

How the data were processed

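Myogenin and p300 were profiled by ChIP-seq in C2C12 cells with 1 library per condition, and 4 of the 8 samples have a peak list. The authors aligned myogenin reads to mm9 with BWA-MEM 0.7.10 and p300 reads with Bowtie 0.12.7 (3 mismatches), removed duplicates with Picard 2.6.0 and called peaks per library with findPeaks of HOMER 4.10 (style factor, option region). The deposited files give only positions, so the threshold could not be changed and the depth of each library is not in them. Starts were read as counted from 0 and are printed counted from 1.

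Gene bodies and TSS of protein-coding transcripts came from GENCODE vM1 on the same build. Sharing needed at least 1 bp, and motifs were counted on both strands within 50 bp (E-box) or 100 bp of the center. Every myogenin interval, every interval within 1 kb of a member's TSS, every p300 interval over myogenin and the longest p300 interval of each gene were named. The members and lists were chosen with earlier results of these data known, and the Six5 and Eya2 sequences, the E-box spacing and the other p300 intervals named were chosen after their values were seen. Shares carry 95% Wilson intervals for counting error only. Alternatives changed the window, the overlap rule, the TSS set, the E-box definition and the smallest length allowed. Python 3.11.15, pysam 0.24.0, pandas 2.3.3 and matplotlib 3.10.9 were used, and 17 of 17 steps on simulated data were recovered. Some of the Eya4 intervals that this rule names, with their sequences, are not reported here.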

Additional observations from a re-analysis of the deposited data

How the results depend on the processing

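No paired analysis was possible because each condition has 1 library and no test was made. Of 48 values under alternatives for 10 results, 35 stayed within the limit used (1.5 times a count, or the Wilson interval of a share). The counts moved with the window: at 10 kb the Myog_Bex count was 6, the same as the 6 of Myog_Ctl, with Six4 at 1 against 0 and Eya3 at 0, and at 100 kb the counts were 11 (Myog_Ctl), 16 (Myog_Bex), 39 (p300_Ctl) and 20 (p300_Bex). Leaving out intervals of the smallest length left 11 p300_Ctl and 5 p300_Bex intervals and 1 interval within 1 kb of a TSS. With a reciprocal overlap of 50% the share of myogenin overlapping p300 was 14.3% in control and 10.0% in bexarotene. It was 71.4% and 40.0% when a gap up to 200 bp was allowed, and 57.1% and 60.0% with the p300 intervals of both lists. Under these alternative overlap rules the shares of the whole lists were not computed, and those given above apply to the rule of 1 bp only. The share of bexarotene myogenin intervals with an E-box was 90.0% within 100 bp (59.6 to 98.2), against 76.4% of the whole list. In the whole interval it was 90.0% (59.6 to 98.2), against 77.2%. For any CANNTG within 50 bp it was 90.0%, and the share of the whole list was not computed for that setting. The share of bexarotene myogenin regions unique to bexarotene (33.3% to 50.0%) and that of control p300 regions unique to control (60.0% to 76.2%) stayed within their intervals under all 5 alternatives each, and the other shares unique to 1 condition were not recomputed. The lists give no tag counts, so depth and peak height could not be set against any of these values.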
